A study of Mus musculus with 12 samples.

Results

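Glucose that enters a cell is trapped by hexokinases, which phosphorylate it, and part of this step is placed under insulin control by the AKT and S6 kinases. The transcripts of 6 such genes were followed in the brain of mice lacking the BK channel. Hk2, Hk3 and Hkdc1 encode hexokinases, Akt2 encodes a serine/threonine kinase that transmits the insulin signal, and Rps6kb2 and Rps6ka6 encode the ribosomal protein S6 kinases S6K2 and RSK4. They were taken as the rows with these 6 gene symbols in either of the deposited tables, which together list 1017 genes. All 6 were among the 652 genes listed for hippocampus, and 3 of them (Hk3, Akt2 and Rps6kb2) were also among the 561 genes listed for cortex.

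RNA came from the hippocampus and the cortex of adult C57BL/6 mice, with 12 libraries in all and 3 for each combination of tissue and genotype. The BK KO mice carry a CRISPR/Cas9 frameshift deletion in kcnma1, the gene for the pore-forming BKα subunit, in both alleles and in every cell, and the WT mice carry no edited allele. They came from crosses of heterozygous mice, and no drug or other treatment is given for either genotype. The methods describe the sequenced mice only as adult, and give a young adult age and male sex for later experiments with BK KO mice. The study's methods say that 3 different mice of each genotype were sampled, but the labels do not tie a hippocampus library to a cortex library of the same mouse.

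Each table holds only genes that the authors called different between the genotypes in that tissue, so a gene outside it was not analysed here. Hk1, Akt1, Rps6kb1, Mtor and Hif1a are in neither table. The 6 genes therefore differ between genotypes partly by selection, and the counts below describe listed genes and are no independent test. The deposited values carry no named unit and were treated as FPKM, that is fragments scaled by transcript length and by library total. The depth of the libraries is unknown. The genotypes were compared with limma on log2(FPKM + 1), and a gene was called at an unadjusted p under 0.05 together with a log2 fold change of over 0.58 up or down. The p printed beside a gene is adjusted by the Benjamini-Hochberg method over all listed genes of that tissue. Those genes were already selected on the same libraries, so this adjustment does not control a false discovery rate over all measured genes. With all libraries in the fit, calls of the 6 genes were the same with the adjusted p. Calls in fits that left out 1 library use the unadjusted p. The log2(FPKM + 1) scale understates the change of genes with a low FPKM.

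The targeted transcript followed the labels. Kcnma1 averaged 10.5 FPKM in WT and 2.73 FPKM in BK KO hippocampus, and 11.2 FPKM and 2.94 FPKM in cortex, with a log2 fold change of -1.63 in both. BK KO hippocampus replicate 3 stood apart in Gh (growth hormone, a pituitary transcript), which was listed at 57.5 FPKM there, at 0.120 and 0.184 FPKM in the other BK KO hippocampus libraries, and at 0 in WT. The values of the hexokinases and kinases without that library are given beside the results. Of 10 neuronal markers only Gad2 was listed in either tissue, so the tissue labels could not be checked against a full marker list. In bulk tissue, fewer cells of a type and less RNA per cell cannot be told apart.

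Hexokinases differ in where they work. Hexokinase 2 is the insulin-responsive form of muscle and fat and sits on mitochondria, and its gene is a textbook target of the hypoxia factor HIF-1. Hexokinase 3 is best known from myeloid blood cells, and HKDC1 is a more recently described relative linked to glucose handling. AKT2 is the AKT form most tied to insulin-driven glucose uptake, S6K2 acts downstream of the mTOR complex mTORC1, and RSK4 belongs to the kinases activated by ERK. In the KEGG annotation that the tables carry, the 3 hexokinases share 11 pathways, glycolysis included, and Akt2 and Rps6kb2 share 24. The HIF-1 signaling pathway and the insulin signaling pathway each include 5 of the 6 genes, all but Rps6ka6, and the mTOR signaling pathway includes the 3 kinases.

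Because 5 of the genes share the HIF-1 annotation, their promoters are shown with a form of the HIF binding motif core in capitals. This form was ACGTG on either strand (CACGT as read here). Other forms, such as GCGTG, were not searched, and the core below means ACGTG. The sequences are the 250 bases before the annotated start, 5′ to 3′ on the gene's strand, from RefSeq on GRCm38.p6. RefSeq windows were matched for 5 of the 6 genes, all but Rps6kb2, with 9 windows in all. Those of the hexokinases and the first of the Akt2 windows follow.
Hk2 (chr6:82774455-82774704, minus strand): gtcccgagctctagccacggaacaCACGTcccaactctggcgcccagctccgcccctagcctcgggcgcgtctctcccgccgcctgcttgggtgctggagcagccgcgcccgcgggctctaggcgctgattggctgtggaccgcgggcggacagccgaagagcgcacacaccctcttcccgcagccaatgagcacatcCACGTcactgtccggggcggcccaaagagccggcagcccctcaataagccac
Hk3 (chr13:55021386-55021635, minus strand): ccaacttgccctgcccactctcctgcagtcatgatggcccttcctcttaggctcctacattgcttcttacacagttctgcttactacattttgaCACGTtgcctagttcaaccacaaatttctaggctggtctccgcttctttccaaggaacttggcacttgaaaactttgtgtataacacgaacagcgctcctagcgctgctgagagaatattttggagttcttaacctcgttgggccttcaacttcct
Hkdc1 (chr10:62422458-62422707, minus strand): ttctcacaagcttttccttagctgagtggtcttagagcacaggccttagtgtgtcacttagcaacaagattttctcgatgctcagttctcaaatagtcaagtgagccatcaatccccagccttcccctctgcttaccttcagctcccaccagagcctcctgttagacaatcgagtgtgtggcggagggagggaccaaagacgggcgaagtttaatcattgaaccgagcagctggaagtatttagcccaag
Akt2 (chr7:27591302-27591551, plus strand): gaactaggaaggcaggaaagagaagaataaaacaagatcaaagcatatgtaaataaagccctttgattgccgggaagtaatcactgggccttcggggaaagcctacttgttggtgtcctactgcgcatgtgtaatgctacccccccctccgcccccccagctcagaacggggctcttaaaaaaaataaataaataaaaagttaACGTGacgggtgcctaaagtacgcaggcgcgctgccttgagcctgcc

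The Hk2 window holds the core at 2 places, 226 and 52 bases before the start, and is the richest in G and C of the 4, at 69.6%. The Hk3 window holds it at 1 place, 156 bases before the start, and the Akt2 window at 1 place, 47 bases before the start. The Hkdc1 window holds no ACGTG core, nor do the other 3 Akt2 windows or the 2 of Rps6ka6, so 3 of the 9 windows hold it. Of all 32851 RefSeq windows of this length, 16.6% hold the core, which is also contained in the E-box CACGTG found in 6.02% of them. A match of these letters is a description of the sequence and does not show that a factor binds there.

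In hippocampus the 3 listed hexokinases moved in different directions. Hkdc1 fell in BK KO mice, Hk3 was lower and Hk2 was higher, and for each of them no BK KO library lay within the WT range. Such a separation of the groups was seen for 79.9% of all listed hippocampus genes. Hk2 stood at 0.614, 0.707 and 0.794 FPKM in WT replicates 1 to 3 and reached 1.17, 1.43 and 1.03 FPKM in BK KO replicates 1 to 3. The lowest BK KO value was above the highest WT value. The mean was 0.705 ± 0.0902 FPKM in WT and 1.21 ± 0.203 FPKM in BK KO (SD, n = 3 each), a ratio of 1.72. The log2 fold change on log2(FPKM + 1) was 0.37 (SE 0.11, 95% interval 0.11 to 0.64, adjusted p = 0.0278), under the fold that the call required. Without BK KO replicate 3 it was 0.43.

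Hkdc1 was the most abundant of the 3 hexokinases in WT hippocampus, at 2.80, 1.98 and 2.27 FPKM, against 1.03, 1.69 and 0.568 FPKM in BK KO. No BK KO library came up to the lowest WT one, and BK KO replicate 3 was the lowest. The mean fell from 2.35 ± 0.413 FPKM to 1.098 ± 0.565 FPKM (SD, n = 3 each), to 46.7% of WT. The log2 fold change was -0.70 (SE 0.21, 95% interval -1.20 to -0.21, adjusted p = 0.0266), past the threshold. Without BK KO replicate 3 the log2 fold change was -0.51 and the call was lost. The adjusted p was 0.0709 without WT replicate 1, 0.0588 without WT replicate 3 and 0.0562 without BK KO replicate 1.

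Hk3 was low in every hippocampus library, at 0.497, 0.422 and 0.577 FPKM in WT and 0.347, 0.141 and 0.0868 FPKM in BK KO. The groups did not overlap, and BK KO replicate 1 was the nearest to WT. The mean was 0.498 ± 0.0776 FPKM in WT and 0.192 ± 0.137 FPKM in BK KO (SD, n = 3 each), 38.4% of WT. The log2 fold change was -0.34 (SE 0.12, 95% interval -0.62 to -0.05, adjusted p = 0.0424). At this WT level even a BK KO value of 0 would give a log2 fold change of only -0.58, so Hk3 could hardly reach the required fold with a pseudocount of 1. Without BK KO replicate 3 its log2 fold change was -0.27, with an unadjusted p above 0.05. The unadjusted limma p was also above 0.05 without WT replicate 1, WT replicate 3 or BK KO replicate 2.

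**Figure D1:**
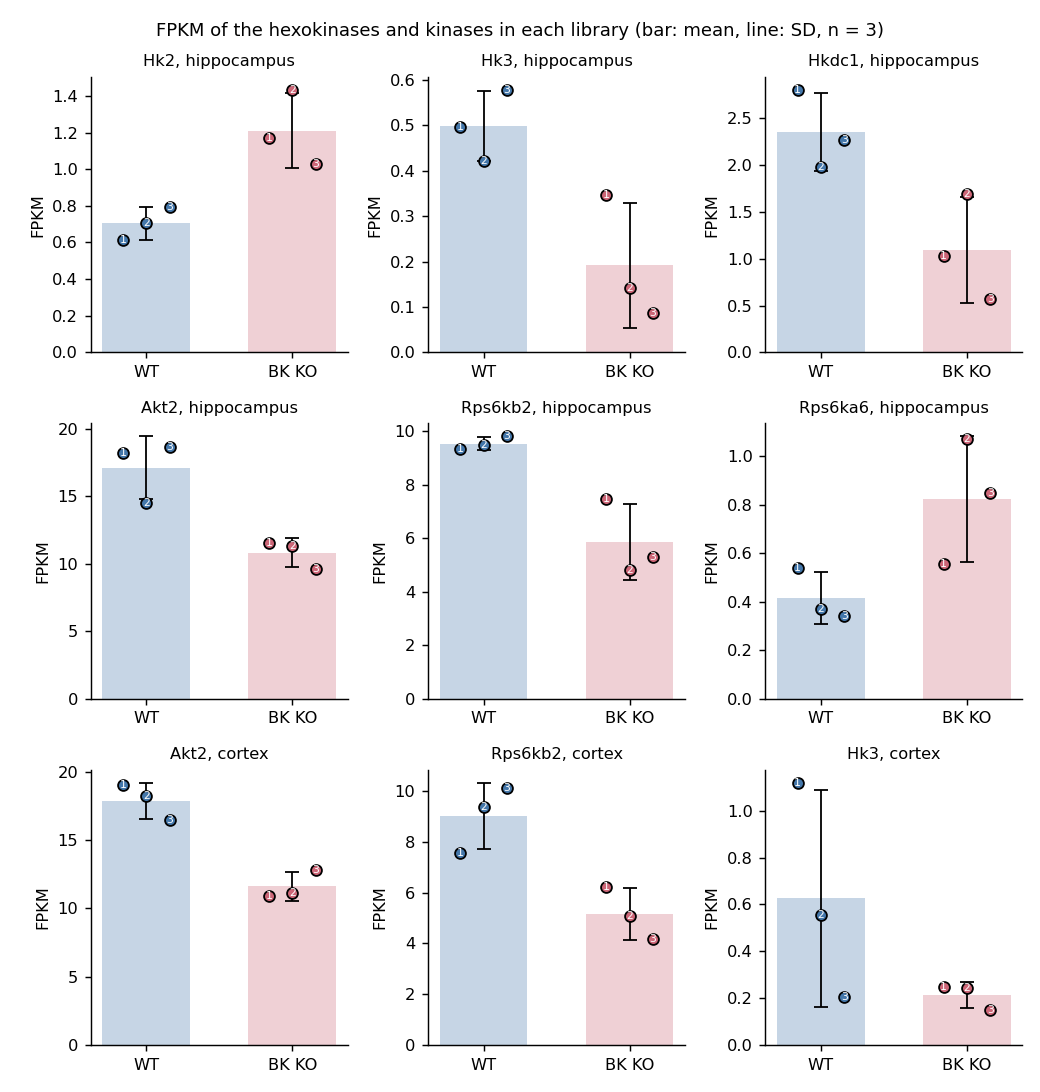
FPKM of each gene in each library (vertical axes, linear from 0), with WT in blue and BK KO in red; points carry the replicate number, bars are means and lines are SDs (n = 3). In hippocampus the 6 genes show no overlap between genotypes, Hk2 and Rps6ka6 being higher in BK KO and the others lower, while in cortex the Hk3 values of WT spread from 0.203 to 1.12 FPKM and overlap those of BK KO. Of all listed genes, 79.9% in hippocampus and 80.6% in cortex show no overlap.

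The make-up of the 3 transcripts differed between genotypes as well. Of their summed FPKM, Hk2 made up 15.7%, 22.7% and 21.8% in the WT libraries and 45.9%, 43.8% and 61.1% in the BK KO libraries. Hkdc1 made up 71.6%, 63.7% and 62.4% in WT and 40.5%, 51.8% and 33.7% in BK KO. Hkdc1 thus exceeded Hk2 in every WT library, 2.81-fold to 4.56-fold, whereas in BK KO the ratio of Hkdc1 to Hk2 ran from 0.551 to 1.18 and was above 1 only in replicate 2. The sum itself was 3.91, 3.11 and 3.64 FPKM in WT and 2.55, 3.26 and 1.69 FPKM in BK KO, so the groups overlapped in the sum and not in the shares of Hk2 or Hkdc1. Hk3 gave 12.7% to 15.8% of the sum in WT and 4.33% to 13.6% in BK KO, which overlap. These shares follow from the values above and were not tested, and they leave out Hk1.

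**Figure D2:**
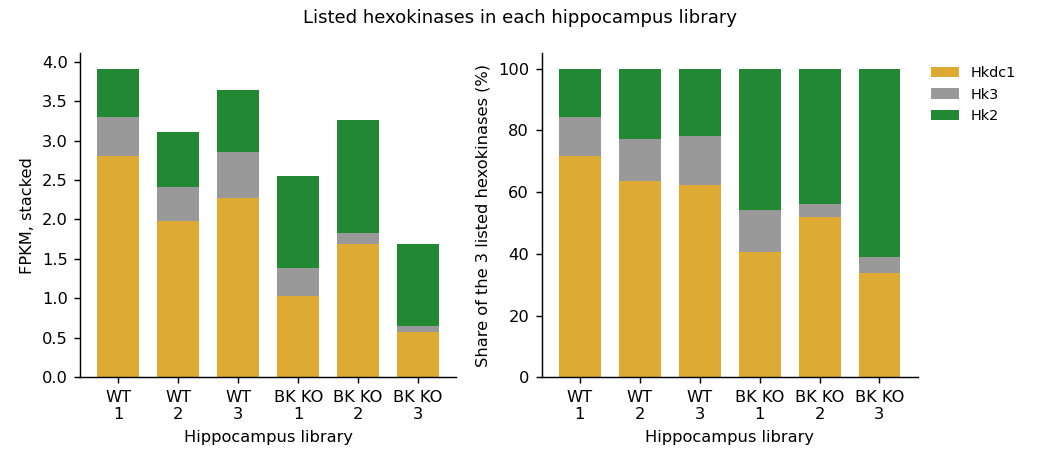
Stacked FPKM (left) and percent share (right) of Hkdc1, Hk3 and Hk2 in each of the 6 hippocampus libraries, labelled by genotype and replicate number. The share of Hk2 is at most 22.7% in WT libraries and at least 43.8% in BK KO libraries.

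Akt2 and Rps6kb2, the insulin-side kinase and the mTORC1-side S6 kinase, fell in both tissues. Akt2 in hippocampus was 18.2, 14.5 and 18.7 FPKM in WT and 11.6, 11.4 and 9.62 FPKM in BK KO. All BK KO values were under the lowest WT value. The mean went from 17.1 ± 2.31 FPKM to 10.8 ± 1.07 FPKM (SD, n = 3 each), 63.2% of WT, with a log2 fold change of -0.61 (SE 0.14, 95% interval -0.94 to -0.29, adjusted p = 0.0176). This lay close to the required fold, and the call held in 3 of the 6 fits that left out 1 library. It was lost without WT replicate 1 (-0.56), WT replicate 3 (-0.55) or BK KO replicate 3 (-0.53).

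Akt2 in cortex was nearly the same picture, at 19.0, 18.2 and 16.5 FPKM in WT and 10.9, 11.2 and 12.8 FPKM in BK KO. Again no BK KO library reached the WT range. The mean went from 17.9 ± 1.31 FPKM to 11.6 ± 1.06 FPKM (SD, n = 3 each), 65.0% of WT, with a log2 fold change of -0.58 (SE 0.10, 95% interval -0.82 to -0.34, adjusted p = 0.0217). The fold passed the required size only just, and the call held in 2 of the 6 fits that left out 1 library, those without WT replicate 3 and without BK KO replicate 3. In the other fits, without WT replicate 1, WT replicate 2, BK KO replicate 1 or BK KO replicate 2, it was lost, and over all 6 the log2 fold change ran from -0.65 to -0.54.

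Rps6kb2 in hippocampus was 9.33, 9.47 and 9.79 FPKM in WT, the smallest WT spread of the 6 genes relative to the mean, and 7.48, 4.81 and 5.31 FPKM in BK KO. The BK KO values all lay below WT but were more scattered. The mean went from 9.53 ± 0.240 FPKM to 5.87 ± 1.42 FPKM (SD, n = 3 each), 61.6% of WT, and the log2 fold change was -0.64 (SE 0.16, 95% interval -1.01 to -0.27, adjusted p = 0.0189). The call was lost without BK KO replicate 2, at -0.53. Without BK KO replicate 3, the library with Gh, the value was -0.58, just past the required fold, with an adjusted p of 0.0529.

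Rps6kb2 in cortex was 7.56, 9.39 and 10.1 FPKM in WT and 6.23, 5.08 and 4.19 FPKM in BK KO. The groups did not overlap here either. The mean went from 9.02 ± 1.31 FPKM to 5.17 ± 1.03 FPKM (SD, n = 3 each), 57.3% of WT, and the log2 fold change was -0.71 (SE 0.16, 95% interval -1.09 to -0.32, adjusted p = 0.0237). By unadjusted p this call held in all 6 fits that left out 1 library. The adjusted p was 0.0568 without WT replicate 2, 0.0572 without WT replicate 3 and 0.0557 without BK KO replicate 2. Rps6kb2 shares 1224 of its 5167 exonic bases, 23.7%, with Ptprcap on the opposite strand in GENCODE release M21, and the sources do not say that counting used strand, so reads of the pair may not be told apart. Ptprcap is in neither table. Akt2 has a processed pseudogene copy, Akt2-ps, whose reads could likewise be mixed with it.

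The ratio of Akt2 to Rps6kb2 FPKM was 1.80 ± 0.233 in WT and 1.91 ± 0.415 in BK KO hippocampus, and 2.03 ± 0.451 and 2.34 ± 0.672 in cortex (SD, n = 3 each). The genotypes overlapped in this ratio in both tissues.

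Rps6ka6, the RSK4 gene, was listed in hippocampus only. It stood at 0.540, 0.369 and 0.343 FPKM in WT and 0.555, 1.07 and 0.847 FPKM in BK KO. The groups were apart by no more than 0.0145 FPKM, the gap between WT replicate 1 and BK KO replicate 1. The mean was 0.417 ± 0.107 FPKM in WT and 0.824 ± 0.258 FPKM in BK KO (SD, n = 3 each), a ratio of 1.97. Its log2 fold change was 0.36 (SE 0.14, 95% interval 0.03 to 0.68, adjusted p = 0.0499), under the required fold. Without BK KO replicate 3 it was 0.34, with an unadjusted p above 0.05. The unadjusted limma p was also above 0.05 without WT replicate 2, WT replicate 3 or BK KO replicate 2.

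Hk3 in cortex was listed by the authors as different between the genotypes, but the limma fit here did not detect a difference. Its values were 1.12, 0.554 and 0.203 FPKM in WT and 0.246, 0.243 and 0.149 FPKM in BK KO. WT replicate 3 lay inside the BK KO range, and WT replicate 1 was far above all others. The mean was 0.626 ± 0.463 FPKM in WT and 0.213 ± 0.0549 FPKM in BK KO (SD, n = 3 each), 33.9% of WT, with a log2 fold change of -0.39 (SE 0.21, 95% interval -0.89 to 0.12, adjusted p = 0.122). The two-sided exact permutation test of the FPKM values gave p = 0.3. Leaving out WT replicate 3 gave -0.58 and a call, with an adjusted p of 0.0539. Over all 6 fits that left out 1 library the value ran from -0.58 to -0.17.

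Skeletal muscle genes also set WT replicate 1 of cortex apart. Of 18 muscle markers, 14 were listed in cortex with lower BK KO means throughout, and their summed level was 92.6, 33.8 and 28.6 FPKM in WT replicates 1 to 3 and 7.85 to 10.2 FPKM in BK KO. WT replicate 1 was highest in both the muscle sum and Hk3, whereas WT replicate 3 was above all BK KO libraries in the muscle sum and within their range in Hk3. In hippocampus 0 of the 18 were listed. Of 12 neutrophil markers 0 were listed in either tissue. Of 19 markers of microglia and macrophages only Fcrls was listed in hippocampus, at 6.50 to 10.8 FPKM in WT and 1.91 to 5.48 FPKM in BK KO. Fcrls and Itgam were listed in cortex, with a sum of 12.4 to 17.1 FPKM in WT and 5.79 to 10.2 FPKM in BK KO. The part of these cells in the Hk3 values was not tested.

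Other marker lists held few listed genes. The endothelial genes Tek and Tie1, of 10 markers, summed to 5.09 to 6.81 FPKM in WT and 3.13 to 3.91 FPKM in BK KO hippocampus, and to 5.36 to 6.55 FPKM and 3.44 to 4.003 FPKM in cortex. The oligodendrocyte gene Opalin, of 10 markers, ran from 10.04 to 23.9 FPKM in WT and 6.15 to 11.4 FPKM in BK KO hippocampus, and from 14.2 to 23.1 FPKM and 6.47 to 12.4 FPKM in cortex. The interneuron gene Gad2 was higher in BK KO, at 29.8 to 37.5 FPKM against 12.8 to 16.4 FPKM in hippocampus and at 19.1 to 33.1 FPKM against 12.9 to 15.6 FPKM in cortex. Of 9 astrocyte markers only Gfap was listed, in cortex, at 50.9 to 92.2 FPKM in BK KO and 23.1 to 50.4 FPKM in WT. Of 11 ependymal and choroid plexus markers 0 were listed in either tissue. The part of these cell types in the values of the hexokinases and kinases was not tested.

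The counts of calls stand beside those of all listed genes. In hippocampus 3 of the 6 genes passed the threshold (Hkdc1, Akt2 and Rps6kb2), where 42.6% of the 652 listed genes did so. All 3 were lower in BK KO, a direction in which 21.9% of the listed genes passed, and 0 of the 6 passed as higher, where 20.7% of the listed genes did. In the limma test 6 of the 6 had an unadjusted p under 0.05, against 81% of the listed genes. Their groups did not overlap in 6 of 6 cases, against 79.9% of the listed genes. For each of these the two-sided exact permutation test gave p = 0.1, the smallest that 3 against 3 libraries allow.

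In cortex 2 of the 3 genes passed (Akt2 and Rps6kb2), where 30.8% of the 561 listed genes did, and both were lower, where 20% of the listed genes passed as lower. The groups did not overlap for 2 of the 3, against 80.6% of the listed genes, and the exact permutation p of both was 0.1.

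The pseudocount decided the calls of the low genes. With 0.1 in place of 1, all 6 genes passed in hippocampus, where 84% of the listed genes then did. Hk2 reached a log2 fold change of 0.70, Hk3 -1.13 and Rps6ka6 0.82. In cortex the count stayed at 2 of 3, Akt2 and Rps6kb2, where 72.7% of the listed genes then passed.

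**Figure D3:**
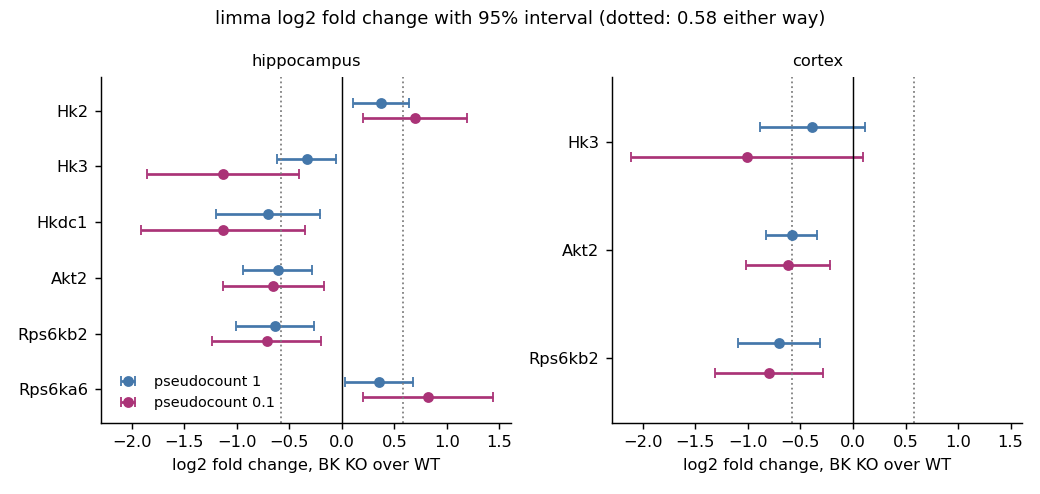
limma log2 fold change of BK KO over WT (horizontal axis) with its 95% interval for each gene in hippocampus (left) and cortex (right), with a pseudocount of 1 (blue) or 0.1 (purple); dotted lines mark 0.58 either way. The estimates of Hk2, Hk3 and Rps6ka6 in hippocampus lie within the dotted lines with a pseudocount of 1 and beyond them with 0.1, and only the intervals of Hk3 in cortex reach across 0.

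For the 3 genes listed in both tissues the difference between the tissues was itself tested, with a genotype by tissue term over the 196 genes listed in both. The hippocampus minus cortex difference in log2 fold change was -0.03 for Akt2 (95% interval -0.41 to 0.35), 0.07 for Rps6kb2 (95% interval -0.44 to 0.58) and 0.05 for Hk3 (95% interval -0.49 to 0.59). No difference was detected at this size of experiment, and the intervals still allow differences as large as 0.59. The Benjamini-Hochberg adjusted p was 0.998 for each, and of the 196 genes 0 had an unadjusted limma p under 0.05 for this term, 0% of those tested. Only genes that the authors called in both tissues entered that fit, so the lack of a difference was partly set by the listing. The fit also treats the tissues as separate mice, although the study took both from its mice. Deviations from the group means over the 196 genes correlated between same-numbered hippocampus and cortex libraries at 0.511, 0.655 and 0.551 in BK KO but at 0.00, 0.494 and 0.02 in WT. Between differently numbered libraries they correlated at -0.451 to -0.175 in BK KO and at -0.505 to 0.422 in WT. The numbers were not taken to mark a mouse. With genotype and number as a block, 4 of the 196 genes had an unadjusted p under 0.05 and 0 an adjusted one, and none of the 4 was Hk3, Akt2 or Rps6kb2. The 95% intervals were then -0.46 to 0.40 for Akt2, -0.29 to 0.43 for Rps6kb2 and -0.48 to 0.58 for Hk3.

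The 6 genes span a wide range of levels. In WT hippocampus the order by mean FPKM was Akt2, Rps6kb2, Hkdc1, Hk2, Hk3 and Rps6ka6. Each neighbouring pair had separate ranges except Hk3 and Rps6ka6, which overlapped. Akt2 was 1.80 times as high as Rps6kb2, and Rps6kb2 was 4.05 times as high as Hkdc1. In BK KO hippocampus the order was Akt2, Rps6kb2, Hk2, Hkdc1, Rps6ka6 and Hk3, in which Hk2 overlapped Hkdc1 and Hkdc1 overlapped Rps6ka6. Hk2 thus passed from the fourth place to the third and Hk3 from the fifth to the last. The cortex order was Akt2, Rps6kb2 and Hk3 in both genotypes with no overlap, and Rps6kb2 was 14.4 times as high as Hk3 in WT and 24.3 times in BK KO. The tables were made separately, so levels across tissues were not compared.

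The 1 other listed gene of glucose entry was Slc2a4, which encodes the insulin-responsive glucose transporter GLUT4. It was 0.449, 0.590 and 0.440 FPKM in WT hippocampus and 1.38, 1.26 and 1.51 FPKM in BK KO. The groups lay far apart relative to their spread. The mean rose from 0.493 ± 0.0840 FPKM to 1.39 ± 0.123 FPKM (SD, n = 3 each), with a log2 fold change of 0.68 (SE 0.10, adjusted p = 0.0142). Of the 36 genes in the list for glucose entry and glycolysis, 4 were listed in hippocampus, the 3 hexokinases and Slc2a4. Of these 4, 1 passed as higher and 1 as lower, where 20.7% and 21.9% of all listed genes did. The median log2 fold change was 0.02, against -0.27 over all listed genes. Without BK KO replicate 3 only 1 of the 4 passed. In cortex 1 of the 36 was listed, Hk3. The KEGG glycolysis pathway held the 3 hexokinases in hippocampus, and in cortex Hk3 and Eno3, the muscle enolase, with a log2 fold change of -0.54 (adjusted p = 0.0217).

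Around AKT the listed genes were few. Of 41 genes for insulin, PI3K and AKT, 2 were listed in hippocampus and 3 in cortex, and all of them passed, where 42.6% and 30.8% of the listed genes did. Akt2 fell, whereas Igfbp3, an IGF-binding protein, rose in both tissues, from 4.48 ± 1.02 FPKM to 8.89 ± 2.85 FPKM in hippocampus and from 4.69 ± 1.01 FPKM to 8.74 ± 2.97 FPKM in cortex (SD, n = 3 each). The log2 fold changes of Igfbp3 were 0.83 (adjusted p = 0.0224) and 0.75 (adjusted p = 0.0411). Igfbp4, another IGF-binding protein, rose in cortex from 54.4 ± 3.54 FPKM to 92.7 ± 25.5 FPKM (SD, n = 3 each), with a log2 fold change of 0.72 (adjusted p = 0.0331). Only 1 of the 2 passed in hippocampus without WT replicate 1, WT replicate 3 or BK KO replicate 3. In cortex only 1 of the 3 passed without BK KO replicate 2, and 2 passed when any other library was left out. The KEGG insulin signaling pathway held 6 listed genes in hippocampus, the 3 hexokinases, Akt2, Rps6kb2 and Slc2a4. Of these, 3 passed as lower (Hkdc1, Akt2 and Rps6kb2) and 1, Slc2a4, as higher. Of all listed genes, 21.9% passed as lower and 20.7% as higher. The count of lower genes thus only repeats the calls given above. The median log2 fold change was -0.47 against -0.27 over all listed genes. Without BK KO replicate 3 the number past the threshold was 2. In cortex it held 4, of which 2 passed, Akt2 and Rps6kb2, both lower, where 20% of all listed genes passed as lower. The median was -0.48 against -0.33, and 1 passed without WT replicate 1, WT replicate 2 or BK KO replicate 1. The fourth was Sh2b2, an adaptor of the insulin receptor, with a log2 fold change of 0.42 (adjusted p = 0.107) and overlapping groups.

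Regulators upstream of mTORC1 were listed too. Ddit4l, which encodes an mTORC1 inhibitor, was 9.50, 6.32 and 7.67 FPKM in WT hippocampus and 4.99, 2.58 and 3.004 FPKM in BK KO, and fell with a log2 fold change of -0.99 (SE 0.23, adjusted p = 0.0181). Sesn3, a sestrin that restrains mTORC1, went the other way in hippocampus. It was 14.8, 10.2 and 11.1 FPKM in WT and 19.7, 18.6 and 19.3 FPKM in BK KO, and rose with a log2 fold change of 0.65 (SE 0.15, adjusted p = 0.0180). Its relative Sesn2 was listed in cortex, at 3.97, 3.47 and 3.83 FPKM in WT and 6.51, 5.62 and 5.40 FPKM in BK KO, with a log2 fold change of 0.52 (SE 0.10, adjusted p = 0.0217), under the required fold. None of these genes overlapped between genotypes, nor did 79.9% of all listed genes in hippocampus and 80.6% in cortex. Of 40 genes for mTOR, S6 kinases and RSK, 4 were listed in hippocampus, of which 1 passed as higher (Sesn3) and 2 as lower (Ddit4l and Rps6kb2), with a median of -0.14 against -0.27 over all listed genes. In cortex 2 were listed, of which Rps6kb2 passed as lower, with a median of -0.09 against -0.33. Of all listed genes, 20.7% passed as higher and 21.9% as lower in hippocampus, and 10.9% and 20% in cortex.

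The KEGG mTOR pathway adds Wnt genes, which it counts as inputs. In hippocampus it held 6 listed genes with 3 past the threshold, where 42.6% of all listed genes passed. The 3 were Akt2, Rps6kb2 and Wnt9a, all lower, where 21.9% passed as lower. The median was -0.15 against -0.27. Without WT replicate 1 only 1 passed. The log2 fold change was -0.69 for Wnt9a (adjusted p = 0.0209), 0.32 for the receptor gene Fzd5 (adjusted p = 0.0570) and 0.37 for Wnt10b (adjusted p = 0.0524). In cortex it held 4, with Akt2 and Rps6kb2 past the threshold, where 30.8% of all listed genes passed. The median was -0.53 against -0.33, and 1 passed without WT replicate 1, WT replicate 2, BK KO replicate 1 or BK KO replicate 2. There Chuk, the gene of the kinase IKKα, had a log2 fold change of -0.47 (adjusted p = 0.0431). The larger KEGG PI3K-Akt pathway held 19 listed genes in hippocampus, 6 past the threshold as higher and 4 as lower, and 13 in cortex, 1 as higher and 3 as lower. Of all listed genes, 20.7% passed as higher and 21.9% as lower in hippocampus, and 10.9% and 20% in cortex. In cortex 2 of the 13 PI3K-Akt genes passed without WT replicate 2 or BK KO replicate 2.

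**Figure D4:**
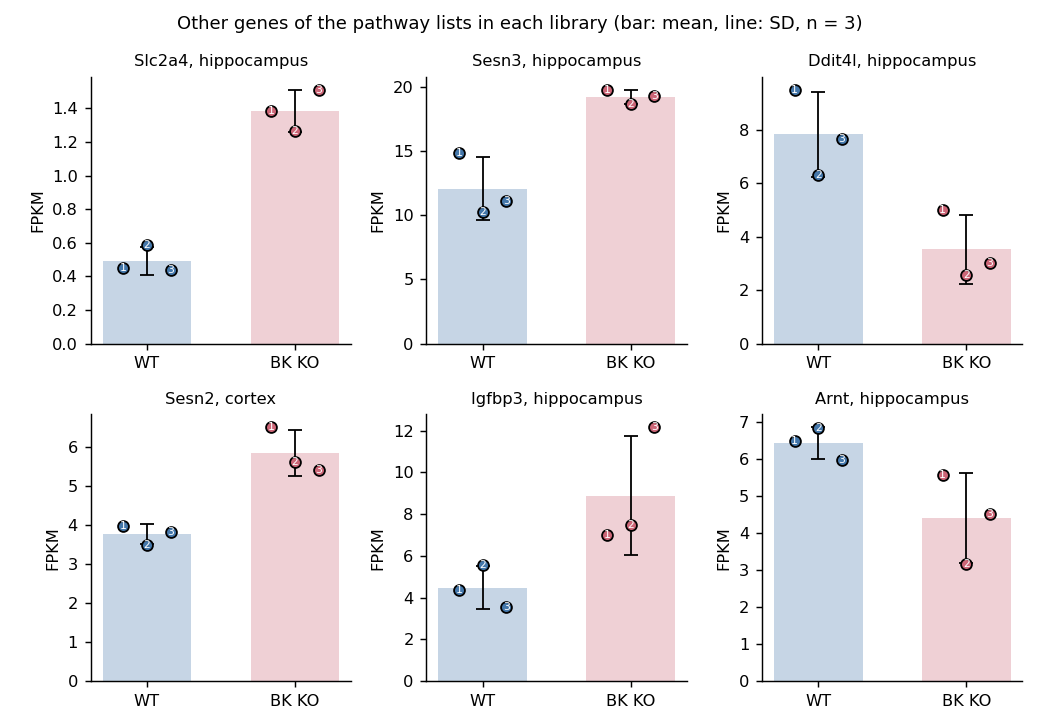
FPKM in each library of other genes of glucose entry, insulin, mTOR and HIF-1 signaling, each in the tissue named above its panel (vertical axes, linear from 0), with WT in blue and BK KO in red; points carry the replicate number, bars are means and lines are SDs (n = 3). Slc2a4, Sesn3, Sesn2 and Igfbp3 are higher in every BK KO library than in any WT library, and Ddit4l and Arnt are lower. Of all listed genes, 79.9% in hippocampus and 80.6% in cortex show no overlap.

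Of 33 HIF-1 factors and targets, 10 were listed in hippocampus. Of these, 8 had a higher mean in BK KO, against 41.7% of all listed genes, and 4 of them passed as higher, against 20.7%, with a median log2 fold change of 0.48 against -0.27 over all listed genes. The 4 were Adm (adrenomedullin, a vasodilator peptide) at 0.74 (adjusted p = 0.0409), Angpt2 (an angiopoietin) at 0.69 (adjusted p = 0.0266), Camk2d (a calcium-dependent kinase) at 0.74 (adjusted p = 0.0370) and Cdkn1a (the cell cycle inhibitor p21) at 1.19 (adjusted p = 0.0244). The groups of Camk2d overlapped. Those not past the threshold included Hk2, Il6ra at 0.49 (adjusted p = 0.0279) and Hif3a at 0.32 (adjusted p = 0.104), besides 2 lower genes. The lower ones were Tek, the receptor of the angiopoietins, at -0.54 (adjusted p = 0.0237), and Arnt, the partner subunit of the HIF factors, at -0.48 (adjusted p = 0.0442). Arnt was 6.50, 6.83 and 5.98 FPKM in WT and 5.56, 3.15 and 4.51 FPKM in BK KO, with no overlap.

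The KEGG HIF-1 pathway held 12 listed genes in hippocampus, 5 of them hexokinases or kinases described here. Of the 12, 6 passed, 3 higher (Angpt2, Camk2d and Cdkn1a) and 3 lower (Hkdc1, Akt2 and Rps6kb2), with a median of 0.02 against -0.27. In cortex it held 6, of which Cdkn1a passed as higher at 0.96 (adjusted p = 0.0217) and Akt2 and Rps6kb2 as lower, with a median of -0.50 against -0.33. Without WT replicate 3, 5 passed. Tek was at -0.46 there (adjusted p = 0.0250). Over the 4 lists together, 13 listed genes other than the hexokinases and kinases were found in hippocampus, 7 of them past the threshold as higher and 1, Ddit4l, as lower. Over all listed hippocampus genes 20.7% passed as higher and 21.9% as lower. In cortex 5 were found, 3 past the threshold, all higher (Igfbp3, Igfbp4 and Cdkn1a). Over all listed cortex genes 10.9% passed as higher and 20% as lower. The lists were not tested against other genes.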

How the data were processed

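Hippocampus and cortex RNA of 3 BK KO and 3 WT mice per tissue (12 libraries) was measured. Per the labels, the authors used a NEBNext Ultra kit with 2 μg of RNA, and the methods give 150 bp paired ends. The submitters' processing notes name mm9, DESeq 1.10.1 and DESeq2. The aligner and counter are not given in the sources used here. The deposited value per library carries no named unit and was treated as FPKM because of its relation to transcript length: base mean over FPKM rose with length (Spearman 0.605 over 628 hippocampus genes and 0.643 over 542 cortex genes). The authors' base mean is a normalized signal, size-factor scaled counts averaged per group, and served only for this check and to rescale FPKM. The deposited fold change, log2 fold change and p-value columns hold the authors' own comparison and were not used. Depth is unknown, so no counting interval is given.

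limma 3.58.1 (R 4.3.3; lmFit then eBayes, without trend or block) was fitted per tissue to log2(FPKM + 1) over all listed genes, and over 196 shared genes for genotype by tissue, and was tested on simulated data. Python 3.11.15, pandas 2.3.3 and scipy 1.17.1 did the rest. The members and lists were chosen with earlier results of these data known. Named genes are the members, Kcnma1, genes of the 4 lists past the threshold, those with HIF-1, mTOR or insulin annotation, and per member the 2 nearest profiles; Gh was added after its values were seen. Alternatives were a pseudocount of 0.1, a mean FPKM of at least 1, limma trend, a replicate block, a log2 fold change beyond 1, adjusted p, size-factor scaling (chosen after seeing the data) and leaving out each library. Replicate numbers come from the labels, which do not say that they mark a mouse or a batch. Some genes of the lists are counted but not reported by name here.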

Additional observations from a re-analysis of the deposited data

How the results depend on the processing

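Hk2, Hk3, Hkdc1, Akt2, Rps6kb2 and Rps6ka6 kept their direction within each tissue under every alternative that gave a value. A pseudocount of 0.1 raised the genes past the threshold from 278 to 548 in hippocampus and from 173 to 408 in cortex, and brought Hk2 (0.70), Hk3 (-1.13) and Rps6ka6 (0.82) past it in hippocampus. It also turned the sign of the tissue difference of Hk3, to -0.12, which no setting called. Requiring a log2 fold change beyond 1 left 35 genes in hippocampus and 25 in cortex and none of the called genes here, Hkdc1 at -0.70, Akt2 at -0.61 and Rps6kb2 at -0.64 in hippocampus, and Akt2 at -0.58 and Rps6kb2 at -0.71 in cortex. Requiring a mean FPKM of at least 1 removed Hk2, Hk3 and Rps6ka6 from hippocampus and Hk3 from cortex, which gave no value. limma trend, Benjamini-Hochberg adjusted p and size-factor scaling changed no call of these genes.

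Leaving out 1 library gave 230 to 282 genes in hippocampus and 135 to 180 in cortex. The log2 fold changes then ran from 0.30 to 0.43 for Hk2, from -0.43 to -0.27 for Hk3, from -0.90 to -0.51 for Hkdc1, from -0.72 to -0.53 for Akt2, from -0.80 to -0.53 for Rps6kb2 and from 0.26 to 0.47 for Rps6ka6 in hippocampus. In cortex they ran from -0.58 to -0.17 for Hk3, from -0.65 to -0.54 for Akt2 and from -0.83 to -0.59 for Rps6kb2. Same-numbered WT and BK KO libraries of a tissue did not deviate together (correlations of 0.0202, 0.0840 and -0.0685 in hippocampus and -0.239, 0.125 and -0.216 in cortex). The numbers were not taken to pair the genotypes, which 3 libraries per group cannot settle. A replicate block gave 272 genes in hippocampus and 165 in cortex. It changed no call of the 6 genes by unadjusted p, though that p of Rps6ka6 was then above 0.05. In cortex the adjusted p was then 0.0532 for Akt2 and 0.0590 for Rps6kb2. Of 234 recomputed pathway counts, 186 stayed within 1.5 times and 48 did not.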

Other observations

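The listed genes with the profile most like each gene over the 6 libraries of a tissue were found by the root mean square difference of log2(FPKM + 1), each centred on its mean. These libraries include both genotypes, so a like profile includes a like genotype difference, and no function is read from it. For Hk2 they were Sytl5 (0.0747) and Slc25a24 (0.0771, a mitochondrial carrier), for Hkdc1 Grm3 (0.0940, a metabotropic glutamate receptor) and Tspan17 (0.119), and for Hk3 Pde4c (0.0531) and Ccm2l (0.0585). For Akt2 in hippocampus they were Gca (0.0416) and Galt (0.0573, an enzyme of galactose use), for Rps6kb2 Cecr5 (0.0595) and Sytl2 (0.0619), and for Rps6ka6 Oit3 (0.0731) and Esr1 (0.0735, an estrogen receptor). In cortex Akt2 was nearest to Tmem88b (0.0531) and Rcn1 (0.0585), and Rps6kb2 to Rgl2 (0.0546) and Zfp692 (0.0662). Hk3 in cortex was nearest to Myot (0.0531), which encodes the muscle protein myotilin and was listed at 0 in all BK KO cortex libraries, and to Pram1 (0.0875), an adaptor of myeloid cells.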
